A study of Mus musculus with 4 samples.

Results

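Strongly enriched H4K16ac regions are described here, that is, the places in mouse liver chromatin where both a Sirt1-deficient (MT) and a wild-type (WT) mouse showed a clear excess of H4K16ac ChIP reads over input. They numbered 289 of the 36418 regions formed by the islands of both mice. An island is a stretch of genome in which the authors' caller found more ChIP reads than the input accounts for. Islands of the MT and WT lists that overlapped by at least 1 bp were merged into a region. A region was kept if it held exactly 1 island of each list, if the island lengths differed by less than 1000 bp, and if each island held at least 50 ChIP reads and at least 3.5 ChIP reads for each input read. The members were thus chosen by the ChIP and input reads of these same libraries, and their enrichment is a description and not a finding.

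Acetylation of lysine 16 on the tail of histone H4 loosens the packing of nucleosomes and is a mark of open, transcribed chromatin. It is written mainly by the acetyltransferase MOF, encoded by Kat8, and removed by deacetylases that include SIRT1, an enzyme that consumes NAD+. In ChIP-Seq the chromatin that an antibody against the mark pulls down is sequenced beside input, which is the same chromatin without the antibody step. The input shows how many reads a place yields without enrichment.

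The liver of 1 MT and 1 WT mouse at 3 months of age was used, and each mouse gave 1 ChIP and 1 input library, so 4 libraries in all. A figure legend of the study names more than 1 pair of mice for ChIP-Seq, while the libraries here come from 1 pair. MT mice carry a targeted deletion in Sirt1 in both copies in every tissue, and WT mice are Sirt1+/+. Both genotypes share a mixed genetic background of 129, FVB and Black Swiss, and by the study's methods the mice were males killed in the morning. Most MT animals die before birth, so an adult MT mouse is a survivor, and whole liver holds other cells beside hepatocytes. Each value has no replicate check, no test between genotypes was run, and no interval given covers the variation between mice. The interval of a read or density ratio covers counting error only, and that of a median or a share reflects the spread among regions of the same libraries. What genotype, the individual mouse and the chromatin preparation each contribute cannot be told apart. Coordinates are in mm8, the build named in the submitters' processing notes. The gene tables at hand are of GRCm38, so no region was assigned to a gene, liver marker genes were not checked, and no sequence is shown.

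The lists held 28377 MT and 26227 WT islands, with medians of 74 and 63 ChIP reads. The MT ChIP library was taken as 1.05 times as deep as that of WT, and the MT input as 1.09 times as deep, from the input reads per kb where both lists have an island and from the ChIP over input library size that the deposited fold implies. All MT over WT ratios below are scaled by these factors, while reads and reads per kb are given as counted.

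Islands of both lists met in 14719 regions, and 12139 of these were made of 1 island of each. The limit on the length difference left 6460 of these, the limit on ChIP reads left 4690, and the ratio of ChIP to input left the 289, which are 2.38% of the 12139. Among the 4690, the ratio reached 3.5 in 573 regions in MT and in 697 in WT. Applied last, the limit on the ratio was missed in at least 1 mouse by 4401 of the 4690. In 9 members the smaller ratio was exactly 3.5. One of them lies on chromosome 11 from 5404801 to 5407200, where 56 ChIP reads stood against 16 of input in MT and 74 against 14 in WT. Just outside lies a region on chromosome 4 from 33127801 to 33130400, where MT had 94 ChIP reads to 27 of input, a ratio of 3.48, and WT had 108 to 19. The fewest ChIP reads of a member were 50, found in 6 members, and 1 region that met all other limits missed this one with 49. The length difference reached 800 bp in 34 members, and 24 regions that met the other limits differed by 1000 bp.

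**Figure D1:**
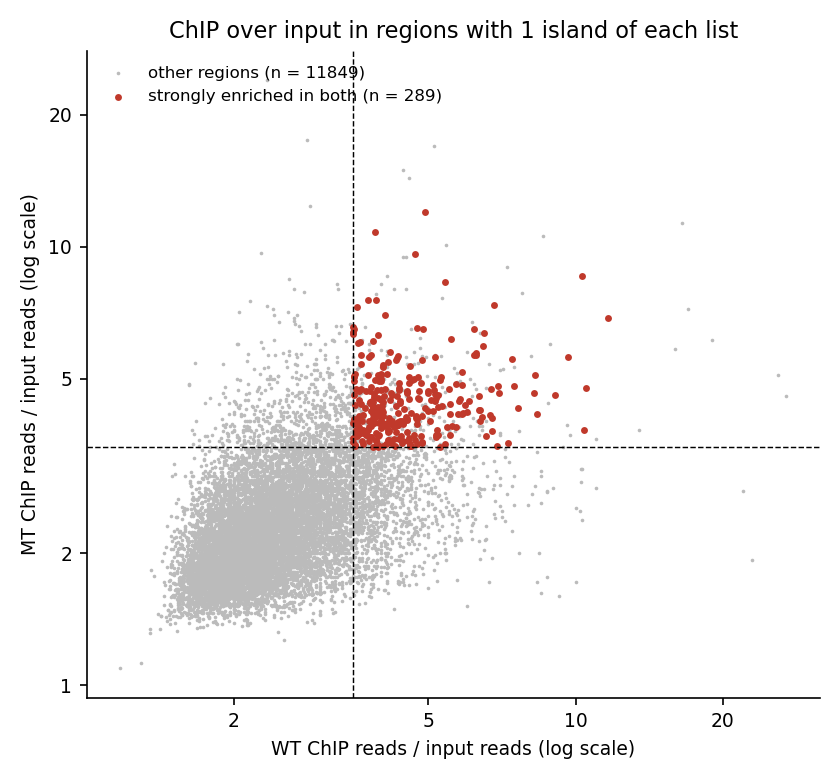
ChIP reads over input reads in WT (horizontal, log scale) and MT (vertical, log scale) for the 12139 regions with 1 island of each list, less 1 without an input read; dashed lines mark 3.5. The 289 members (red) fill the upper right corner, and grey points there failed the limit on reads or on length.

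An island strongly enriched in 1 mouse was usually listed in the other, and among single pairs the median ratio there was lower. The MT list held 1442 islands with at least 50 ChIP reads and a ratio of at least 3.5. Of these, 11.8% had no WT island, 19.3% lay in regions of several islands and 68.9% were paired with a single WT island. Over these 993 pairs the median ratio was 4.05 in MT, which had been chosen for it, and 3.41 in WT, which had not (middle 50%, 2.72 to 4.19). The WT ratio reached 3.5 in 47.3% of them and was under 2 in 2.92%. Chosen in WT instead, 1748 islands met both limits, 7.72% of them had no MT island, and 1188 were paired with a single MT island. There the median was 4.02 in WT and 3.14 in MT, and the MT ratio reached 3.5 in 37.0%. The MT ratio was under 2 in 5.13% of them. In both directions the mouse that was not used for the choice showed the lower median ratio. Choosing islands by the ratio of 1 mouse favours this order. The pairs also hold only places where the caller listed an island in both mice, which favours ratios above its background. These values describe the choice and are no separate result.

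Together the members spanned 0.797 Mb in MT, with 37357 ChIP and 8654 input reads, and 0.772 Mb in WT, with 34338 and 7794. They took 0.911% of the length covered by the MT list and 1.28% of its ChIP reads, and 1.11% and 1.52% in WT. A median member had 104 ChIP reads in MT and 95 in WT, over 24 and 20 reads of input. The ratio of ChIP to input had a median of 4.24 in MT and 4.27 in WT and reached 12.0 and 11.7. The deposited fold, which is scaled for library size, had medians of 4.01 in MT and 3.88 in WT, so the order of the mice was reversed. The extremes of the ratio were at different places. The MT maximum lies on chromosome 2 from 113649601 to 113650800, where MT had 60 ChIP reads to 5 of input and WT had 59 to 12. The WT maximum, on chromosome 3 from 118498801 to 118501000, came from 70 ChIP reads to 6 of input, beside 55 to 8 in MT. At both places the ratio rests on 12 or fewer input reads per mouse.

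Both parts of the ratio set the members apart from the other 11850 regions with 1 island of each list. ChIP reads per kb had a median of 47.2 in MT and 45.0 in WT, against 33.7 and 32.5 in the other regions, which is 1.40 and 1.38 times as much. Input reads per kb were lower, with a median of 10.9 in MT and 10.2 in WT against 15.2 and 13.9, which is 0.715 and 0.728 times as much. The rule uses both counts and had to move them in these directions, so these differences are not evidence of a separate class. In the 4401 other regions that met the limits on reads and length, the medians were 35.3 and 33.0 for ChIP and 15.6 and 14.1 for input. Across the members the ratio followed the input more than the ChIP reads. Spearman's rho of the ratio with input reads per kb was -0.39 in MT and -0.58 in WT, and with ChIP reads per kb it was 0.18 and -0.013 (n = 289 members, which share the libraries and the counts that form the ratio).

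**Figure D2:**
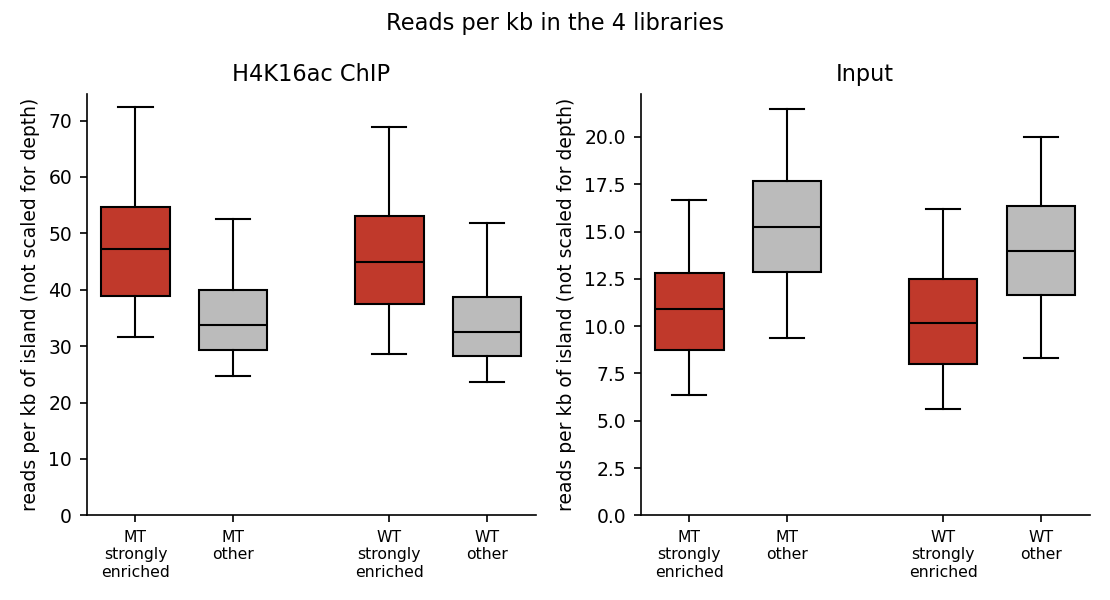
Reads per kb of island in the ChIP (left) and input (right) libraries of MT and WT for the 289 members (red) and the other 11850 regions with 1 island of each list (grey). Boxes are the middle 50% with the median, whiskers the 5th and 95th percentiles; members lie higher in ChIP (medians 47.2 and 45.0) and lower in input (10.9 and 10.2) in both mice.

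The member with the highest smaller ratio lies on chromosome 1 from 164701201 to 164703400. There MT had 120 ChIP reads to 14 of input (ratio 8.57) and WT had 93 to 9 (ratio 10.3). Next came the region on chromosome 3 named above, with ratios of 6.88 and 11.7. On chromosome 12 from 37750601 to 37754000 MT had 162 ChIP reads to 22 of input (ratio 7.36) and WT had 109 to 16 (ratio 6.81). A region on chromosome 5 from 88452201 to 88455200 followed, whose islands spanned the same 3000 bp, and its counts were nearly equal: 108 ChIP reads to 17 of input in MT, and 104 to 16 in WT. A second region of chromosome 12, from 7975401 to 7977600, had ratios of 6.50 and 6.20 from 78 and 62 ChIP reads. Sixth in this order, a long region on chromosome 6 from 141826401 to 141833400 had 280 ChIP reads to 47 of input in MT, and 233 to 36 in WT.

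Ranking by the smaller ratio favours low input and regions high in both mice, so what follows describes the choice and is no separate result. The remaining 4 of the leading 10 had smaller ratios between 5.61 and 5.73 and lie on chromosomes 16 (42965001 to 42967000), 4 (61636001 to 61637800), 1 (58657801 to 58659000) and 4 (69965201 to 69973200). The last spanned 7200 bp in MT and 8000 bp in WT, with 314 and 366 ChIP reads over 56 and 38 of input. In 9 of the 10 the input per kb lay below the median member in both mice, while ChIP per kb lay above it in both mice in 3 and below it in both in 4. The exception with ordinary input was the region at 58657801 on chromosome 1, which had 12.5 and 11.0 input reads per kb and the most ChIP reads per kb of the 10, 70.8 in MT and 69.0 in WT. The scaled log2 of MT over WT ChIP density lay between -0.52 and 0.13 in the 10 regions, above 0 in 5 and below 0 in 5, and all 10 counting intervals of the density ratio included 1. By reads per region, 2 of the 10 intervals left out 1: the region at 37750601 on chromosome 12 had a ratio of 1.42 (1.11 to 1.83), and the one at 69965201 on chromosome 4 had 0.820 (0.703 to 0.956). In the latter the ratio of ChIP to input was 5.61 in MT and 9.63 in WT.

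**Figure D3:**
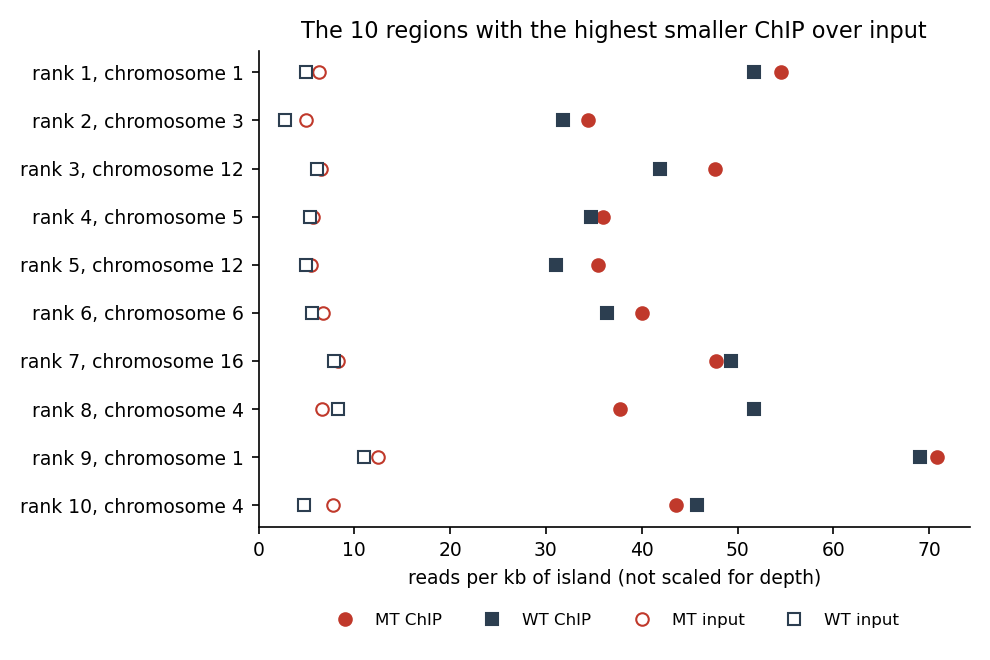
Reads per kb of island in the 4 libraries (horizontal; filled symbols ChIP, open symbols input, circles MT, squares WT) for the 10 members with the highest smaller ratio of ChIP to input (vertical, in order). ChIP runs from 31.0 to 70.8 and input from 2.73 to 12.5 reads per kb, and the mice lie close together in most rows.

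Set side by side, the densities of the members were close in the mice at the median, as a description only. The rule asked for the same least reads, least ratio and similar length in both, so regions weak in 1 mouse could not be members. It set no limit on the difference in ChIP reads above these floors. The scaled ChIP reads per kb gave a median log2 ratio, MT over WT, of 0.013 (95% interval of the median -0.033 to 0.036, from the order of the members), and the middle 50% lay between -0.16 and 0.15. Summed over all members the MT density was 1.01 times that of WT (95% interval 0.993 to 1.02). The density was higher in MT in 149 members, 51.6% (exact binomial interval 45.6 to 57.5%), beside 48.6% of all 12139 regions and 54.2% of the 4690 within the same limits on reads and length. The ratio of ChIP to input, each library scaled to its own input, gave a median log2 of 0.028 (-0.018 to 0.091), and 155 members were higher in MT. These values also rest on the scaling by input. With the summed ChIP reads of the lists set equal instead, which takes the longer covered length of MT as depth and lowers every region by the same amount, the median density change was -0.29 (-0.33 to -0.26) and 12.5% of the members were higher in MT.

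The order of the members by ChIP density was similar in both mice, with a Spearman's rho of 0.78 between MT and WT reads per kb, and that of the input was 0.66. The order by the ratio of ChIP to input was hardly shared, with a rho of 0.10, beside 0.53 in the 4401 other regions within the same limits on reads and length. The rule sets the floor of the ratio in both mice (n = 289 members that share the 4 libraries). Its SD across the members was 1.09 in MT and 1.28 in WT, against 0.704 and 0.733 in the 4401. The reason for the low rho was not tested.

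Input measured in the same members also differed little. Its median log2 of MT over WT was -0.025 (-0.064 to 0.0088), and 133 of 289 were higher in MT. The input scale was set over all regions with islands of both lists, and the rule used input reads. A small difference is thus partly set in advance. Summed over the members the scaled input density of MT was 0.987 times that of WT (0.957 to 1.02). Counting error is large here: the SD of the log2 input change across members was 0.41, while counting error alone gives 0.45. For ChIP the SD across members was 0.28 and counting error gives 0.21. In the 4401 other regions within the same limits these values were 0.25 and 0.22. Differences between the mice, the preparations and the island lengths could all enter the spread beyond counting error, and their parts were not tested.

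Single members past 1.5-fold were few. By ChIP density 7 members were past it higher in MT and 5 lower, which is 2.42% and 1.73%, beside 3.38% and 4.7% of all 12139 regions and 1.39% and 0.938% of the 4690. Counting intervals lay above 1 in 23 members and below 1 in 12, 7.96% and 4.15%, beside 6.85% and 7.8% of the 12139 and 5.74% and 3.05% of the 4690.

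The largest density ratios came from islands of unequal length with nearly equal reads. On chromosome 11 from 98254401 to 98255800 the MT island was 600 bp long with 55 ChIP reads and the WT island 1400 bp with 64. The density ratio was 1.92 (1.31 to 2.79), while the ratio of reads was 0.821 (0.562 to 1.20). A second chromosome 11 region, from 21138001 to 21139200, had 50 ChIP reads in 600 bp in MT and 52 in 1200 bp in WT, a density ratio of 1.84 (1.22 to 2.76). Chromosome 15 from 102029801 to 102031400 showed 68 reads in 1000 bp and 61 in 1600 bp, a ratio of 1.70. On chromosome 18 from 60341201 to 60343800 there were 90 reads in 2000 bp in MT and 66 in 2600 bp in WT, so here MT had more reads in a shorter island (ratio 1.69). The fifth, on chromosome 13 from 94872601 to 94873600, had 54 reads in 600 bp and 55 in 1000 bp. In all 5 the WT island was the longer.

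At the other end the MT island was the longer in all 5. The lowest density ratio, 0.478 (0.330 to 0.698), was on chromosome 3 from 105815801 to 105817000, where 75 MT reads lay in 1200 bp and 50 WT reads in 400 bp. Its input per kb was also lower in MT, with 13 reads in the longer MT island and 12 in the shorter WT island. Chromosome 8 from 75232001 to 75233200 had 53 reads in 1200 bp in MT and 54 in 800 bp in WT, a ratio of 0.625. The other 3 lie on chromosome 11. From 6525001 to 6527000 there were 111 and 118 reads in 2000 and 1400 bp, from 3101001 to 3103400 there were 74 and 72 in 2400 and 1600 bp, and at 5404801, the region at the ratio limit named above, 56 and 74 in 2400 and 2200 bp. By reads alone, none of these 5 had a counting interval that left out 1.

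The length of the islands thus moved with both measures of change, in opposite directions. Spearman's rho of the MT minus WT length with the log2 density change was -0.39, and with the log2 change in reads per region it was 0.62 (n = 289 members from the same 4 libraries). In the 141 members with the longer island in MT the median log2 density change was -0.070 and in the 89 with the longer island in WT it was 0.13, while reads per region gave 0.16 and -0.14. In the 59 members of equal length both are the same measure, and the median was 0.012 (middle 50%, -0.15 to 0.16), with 31 higher in MT. The 47 members with the same start and end gave 0.042, with 26 higher in MT.

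**Figure D4:**
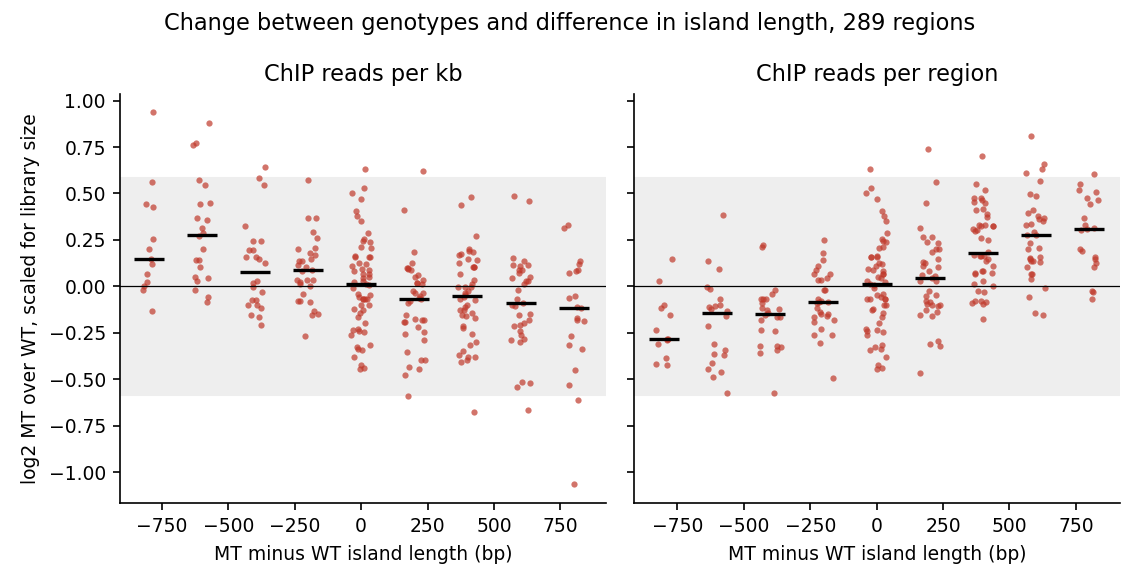
Scaled log2 of MT over WT for ChIP reads per kb (left) and ChIP reads per region (right) against MT minus WT island length in bp for the 289 members; points are jittered sideways, bars are medians at each length difference, and grey marks the span within 1.5-fold. The density falls and the reads per region rise from left to right (rho -0.39 and 0.62), and both centre near 0 at equal length.

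Counted per region without dividing by length, 8 members (2.77%) were past 1.5-fold higher in MT and 0 lower, beside 24.2% and 10% of the 12139 regions and 2.41% and 1.04% of the 4690. In 7 of the 8 the MT island was the longer. Counting intervals of the read ratio lay above 1 in 28 members (9.69%) and below 1 in 8 (2.77%), beside 31.2% and 13.6% of the 12139 and 9.28% and 4.29% of the 4690. Past 1.5-fold by both measures were 2 members, which are named here after their values were seen. On chromosome 19 from 6045001 to 6047000 both islands spanned the same 2000 bp, with 157 ChIP reads to 26 of input in MT and 97 to 27 in WT, a ratio of 1.55 (1.19 to 2.01). On chromosome 8 from 96116801 to 96119400 MT had 185 ChIP reads to 33 of input in 2600 bp and WT had 106 to 28 in 2400 bp, a density ratio of 1.54 (1.21 to 1.97) and a read ratio of 1.67 (1.31 to 2.14). At both the input reads of the mice were close.

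The boundaries of the members coincided often. Both lists gave the same start in 126 members, 43.6% (37.8 to 49.5%), and the same end in 120, 41.5% (35.8 to 47.4%), against 32.4% and 32.1% of the 4401 other regions that met the limits on reads and length. Start and end were both shared in 47 members, 16.3% (12.2 to 21.0%), against 12.1%. The start lay within 1 window of 200 bp in 67.1% and the end in 61.6%, against 56.4% and 55.7% of the 4401. In 286 of the 289 (99.0%) the islands overlapped by at least 50% of the longer one, against 4180 of the 4401. The MT island was longer in 48.8%, the WT island in 30.8%, and 20.4% were of equal length. In the 4401 the MT island was longer in 44.3% and the WT island in 36.4%. Islands are built of whole windows of 200 bp, so a difference of 1 window is the smallest that can be seen.

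These regions were not all narrow. The rule limits the difference in length and not the length itself, and the median member spanned 2400 bp in MT and 2200 bp in WT, against 2800 and 2400 bp in the other 11850 regions. Of the members, 51 (17.6%) had a mean length under 1500 bp, against 12.1% of the other regions and 3.79% of the 4401 within the same limits. A mean length of 5000 bp was reached by 25 (8.65%), against 11.2% of the other regions and 441 of the 4401, so broad regions were among them. The longest lies on chromosome 7 from 63771401 to 63788200, where MT had 1029 ChIP reads to 252 of input over 16200 bp and WT had 986 to 255 over 16800 bp. Its density ratio was 1.03 (0.947 to 1.13). Chromosome 17 from 70991801 to 71002800 followed, with 535 ChIP reads in MT and 558 in WT. The other 3 of the 5 longest lie on chromosomes 10 (95266001 to 95276200), 16 (37495201 to 37504200) and 12 (79131401 to 79140600). All 5 density ratios of these long members lay between 0.951 and 1.09, with intervals that included 1.

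Among the 5 shortest, the counting intervals of the density ratio were wide and left out 1 in 3, while none of the 5 intervals of the read ratio left out 1. On chromosome 13 from 74959801 to 74960600 both islands spanned 800 bp, with 56 ChIP reads to 15 of input in MT and 63 to 16 in WT, a density ratio of 0.849 (0.582 to 1.24). Chromosome 1 from 120441001 to 120442200 held 71 reads in 800 bp in MT and 57 in 1000 bp in WT, a density ratio of 1.49 (1.04 to 2.15). Chromosome 2 from 76970401 to 76971400 held 63 in 1000 bp and 67 in 800 bp, a density ratio of 0.719 (0.501 to 1.03). The other 2 are the regions on chromosomes 3 and 13 with a changed density named above. ChIP reads per kb had a median of 61.7 in MT and 55.0 in WT in the 51 members under 1500 bp, and 43.6 and 41.7 in the 25 of at least 5000 bp. A short island must be dense to reach 50 reads, so the rule sets part of this order. The SD of the log2 density change was 0.39 in the short and 0.17 in the long members.

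Strongly enriched regions were found on all 20 chromosomes of the lists. They made up from 1.32% of the regions with 1 island of each list on chromosome 8 (8 of 606) to 3.33% on chromosome 5 (23 of 691), and 4.00% on chromosome X (3 of 75, exact interval 0.833 to 11.2%). The exact intervals of all 20 included the total of 2.38%, so no chromosome stood apart at this number of members. Chromosome 1 held the most, 26 of 789. The median log2 density change was above 0 on 9 chromosomes and below 0 on 11. The 3 members of chromosome X were all lower in MT by density. They held 137, 332 and 121 ChIP reads in MT and 157, 351 and 78 in WT, and the last of them had more reads in MT.

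Around the members the listed regions were about as dense as elsewhere, with one difference at close range. Another listed region lay within 10 kb of 75.8% of the members and of 75.3% of the other 11850 regions. Within 1 kb, a distance chosen after the values were seen, the shares were 45.0% (39.2 to 50.9%) and 34.3%, and 35.5% in the 4401 within the same limits. The nearest region of these 130 members had islands of both lists in 83 cases, an MT island alone in 35 and a WT island alone in 12. Its median ratio of ChIP to input was 2.46 in MT and 2.70 in WT, below the 3.5 that the rule asks of members. Such neighbours of the other 11850 regions had medians of 2.22 and 2.38, and those of the 4401 had 2.25 and 2.39. In the other regions with such a neighbour, 54.3% of the neighbours had islands of both lists, 28.7% MT alone and 17.1% WT alone. Within 500 kb on either side a median member had 26 other regions and a median other region 29.

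**Figure D5:**
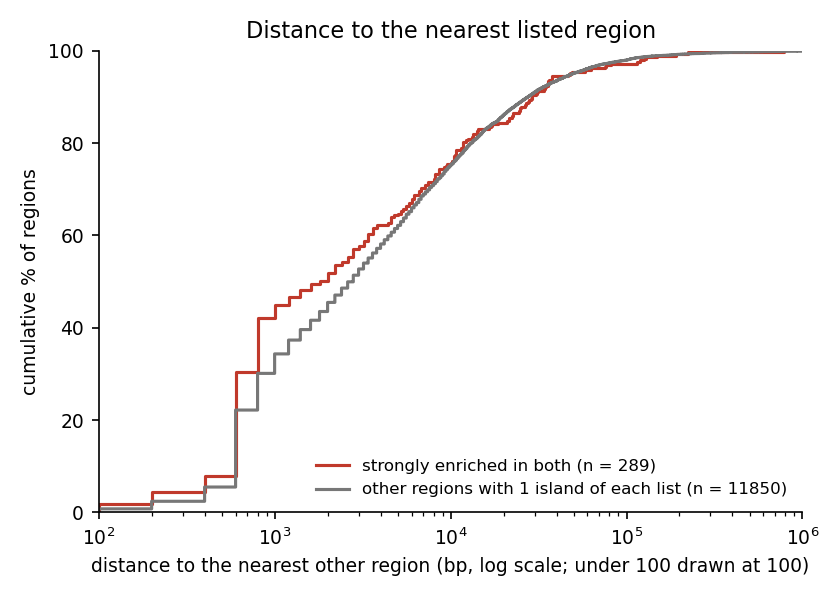
Cumulative share of regions (vertical, %) by distance to the nearest other listed region (horizontal, bp, log scale) for the 289 members (red) and the other 11850 regions with 1 island of each list (grey). The curves part near 1 kb, at 45.0% and 34.3%, and meet by 10 kb, at 75.8% and 75.3%.

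The members themselves were mostly far apart, with a median of 1804 kb to the nearest member on the same chromosome. In 12 cases 2 neighbouring members lay within 50 kb of each other. The closest pairs were 600 bp apart. One of these is the longest member on chromosome 7 and the region from 63788801 to 63791800 beside it, where MT had 207 ChIP reads to 51 of input and WT had 180 to 38. The other is on chromosome 14, from 58396801 to 58399600 and from 58400201 to 58402400, with 88 and 95 ChIP reads for MT and 96 and 79 for WT. The authors joined windows over gaps of up to 400 bp, so a gap of 600 bp is only just wide enough to be kept. On chromosome 5 there were 3 members in a row, at 88609401, 88646801 and 88665201, with smaller ratios between 4.35 and 4.88. Another member nearby, at 88452201, is the region of equal length among the leading 10.

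One member lies beside the island with the most reads of either list. It is the chromosome 11 region from 3101001 to 3103400, which starts 800 bp past the end of an island from 3025201 to 3100200 whose ChIP over input was only 1.09 in MT and 1.17 in WT. The member had 8.33 input reads per kb in MT and 6.88 in WT, below the median of the members, and its ratios were 3.70 and 6.55. It is also among the 5 members with the lowest MT over WT density.

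A high ratio did not always place a region among the lowest p-values of its list, which depend on the number of reads as well. By the deposited p-value the members ranked from 5 to 6808 of 28377 in MT, with a median of 1804, and from 7 to 6488 of 26227 in WT, with a median of 1560. Among the 1000 islands with the lowest p-values were 81 members in MT and 105 in WT. The highest false discovery rate of a member in the deposited lists was 1.22e-13 for MT and 5.48e-12 for WT.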

How the data were processed

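H4K16ac ChIP and input libraries of 1 MT and 1 WT liver were compared. The authors deposited 1 island list per mouse, made after duplicate reads were removed, with windows of 200 bp, gaps of up to 400 bp and a false discovery rate of 0.001. The submitters' processing notes name mm8, Bowtie 0.12.7 and SICER 1.03. The deposited counts are whole ChIP and input reads per island, the deposited p-value and false discovery rate compare ChIP with scaled input, and the deposited fold divides ChIP by input after scaling for library size, a ratio made by the authors. The lists have no header, and columns were identified from these relations.

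Islands overlapping by 1 bp were merged, distances and shares computed, and MT over WT ratios formed with pandas 2.3.3, numpy 2.4.6, scipy 1.17.1 and matplotlib 3.10.9 in Python 3.11.15, and tested on simulated data. Intervals are 95%. Those of read and density ratios are exact conditional binomial, with lengths taken as fixed, and cover counting error only. Those of shares (exact binomial) and medians (order-statistic) treat regions as independent, although all share the same libraries. None covers the variation between mice. At the depth of a median member, the SD of the log2 ChIP change from counting alone is 0.21. Library totals were not used here.

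The members and the regions to name (10 by smaller ratio, 5 at each end of change and length, those at the thresholds) were chosen with earlier results of these data known. Alternative limits, scalings and distances were tried. Gene lists were not used, because no mm8 annotation was used here.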

Additional observations from a re-analysis of the deposited data

How the results depend on the processing

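No paired analysis was possible because the labels carry no replicate numbers and each genotype has 1 library per assay, so no library could be left out either. Of 80 alternatives computed, 55 left the value within its spread or, for counts, within 1.5 times, 25 moved it, and 0 reversed a called value. The number of members, 289, became 656 with a minimum ratio of 3, 129 with 4, 189 with the deposited fold in place of the raw ratio, 118 with at least 100 reads, 128 with length differences below 400 bp and 47 with the same start and end, as stricter or looser limits must do. The median log2 density change, 0.013, became -0.29 with equal ChIP totals, 0.041 with reads per region and 0.042 with the same start and end, and the share higher in MT was 12.5% with equal totals. The median log2 change of the fold, 0.028, became -0.030 with a ratio of 4 and -0.029 with the deposited fold of 3.5, where that of input became 0.013, so the sign of these medians rests on the limit. The cause was not tested. With length differences below 400 bp the MT island was longer in 30.5% of the 128, which still hold all 59 members of equal length. The 12 members past 1.5-fold became 19 with a ratio of 3, 5 with 4, 7 with the deposited fold, 2 with at least 100 reads, 3 below 400 bp, 38 with equal totals (1 higher and 37 lower in MT), 1 with the same start and end, and 7 without members in which the longer island exceeds the shorter by over 50%. Another region lay within 5 kb of 64.7% and within 1 kb of 45.0%, and 53.6% had a region with islands of both lists within 10 kb. The limits to the same start and end, to 1 kb and to islands of similar length were chosen after seeing the data. Depth limits the value of a single member, whose input had a median of 24 reads in MT and 20 in WT.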
